A study of Pardosa pseudoannulata with 6 samples.

Results

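Conjugating enzymes attach glutathione, glucuronic acid or sulfate to foreign compounds and to an animal's own metabolites, which makes them more water-soluble and easier to export. Glutathione S-transferases (GSTs) use glutathione, a thiol tripeptide that also binds cadmium. UDP-glucuronosyltransferases (UGTs) use UDP-glucuronic acid, and sulfotransferases use the activated sulfate PAPS. Membrane-bound sulfotransferases and some glucuronosyltransferases work in the Golgi apparatus, where they build the sugar chains of glycoproteins and proteoglycans.

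Their transcripts were followed in the wolf spider Pardosa pseudoannulata, a predator of farmland, after dsRNA injection. Such RNA makes cells degrade transcripts of matching sequence. The 3 dsFactin libraries came from spiders injected with RNA against the F-actin gene, and the 3 dsNC libraries from spiders injected with a negative control. Spiders of both groups had received cadmium, so neither group shows the response to the metal itself. The labels give the tissue as "Individual", with no organ. They do not tie the replicates to different spiders, and the spread behind each p-value may thus be technical. No cadmium dose, interval after injection or age was stated in the labels.

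The members were 77 of the 75542 assembled genes of the expression table. A gene was a member if its Pfam domains or the description of its best protein hit named 1 of the 3 families, if it reached 0.5 FPKM (fragments per kilobase of transcript, scaled to the library's depth) in at least 3 of the 6 libraries, and if its best hit was not from Drosophila. Of 98 rows with such a domain or description, 17 had a Drosophila best hit and 4 others missed the level. The 77 comprised 14 GST rows, 3 rows of the glucuronosyltransferase rule and 60 sulfotransferase rows. The table gives gene clusters without coordinates, so no genome positions are reported.

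The Drosophila rows bear on what each library held. Their 12 GST rows summed to 0 FPKM in all 3 dsFactin libraries, and to 1.31, 17 and 54.8 FPKM in dsNC replicates 1 to 3. The 4 UGT rows likewise summed to 0 in dsFactin, and to 0.09, 1.17 and 12 FPKM in dsNC. Over the whole table, 2135 rows with a Drosophila best hit summed to 226, 450 and 386 FPKM in dsFactin replicates 1 to 3, and to 745, 2394 and 13922 FPKM in dsNC replicates 1 to 3. The third dsNC library therefore stood apart from the others in fly-like sequence. With it left out, 0 conjugating enzymes passed the test described next.

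Sequencing depth, recovered from the spacing of low values, came to 16080000 to 17910000 fragments in dsFactin and 15790000 to 17650000 fragments in dsNC. In a gene of 1000 bases, 3 fragments equalled 0.233 to 0.267 FPKM in dsFactin and 0.242 to 0.277 FPKM in dsNC. Libraries were compared with limma on log2(FPKM + 1), fitted over all 53182 genes that met the same level. A gene passed at a Benjamini-Hochberg adjusted p under 0.05, and differences near or below 1 FPKM are understated on this scale. Of 10 actin rows tested, the family of the injected RNA, 0 passed, and 4 lay wholly lower and 2 wholly higher in dsFactin. Which of them was the target is not stated in the labels. The most abundant of them, chosen after values were seen, is an actin A3a-like row (Cluster-8110.34823) that was at 1906, 2321 and 3221 FPKM in dsFactin and 4443, 5949 and 5426 FPKM in dsNC (limma adjusted p = 0.0911). The libraries also differed in markers of other tissues. Muscle rows summed to 3850 to 4801 FPKM in dsFactin and 8020 to 9717 FPKM in dsNC, and hemocyanin rows to 43749 to 53996 FPKM in dsFactin and 71800 to 88730 FPKM in dsNC. Ovary and yolk rows summed to 14766 to 26038 FPKM in dsFactin and 10304 to 14438 FPKM in dsNC. Of these 50 rows, 29 had a positive and 21 a negative log2 difference, where 28.4% of all genes tested were positive. In dsFactin 16 lay wholly higher and 9 wholly lower, against 5.98% and 21.5% of all genes, and 1 passed in each direction. Of 181 epidermis rows, 20 fell and 0 rose, where 0.419% and 0.0771% of all genes tested did. Their median log2 difference was -1.64, and their sums overlapped at 8609 to 29596 FPKM in dsFactin and 29572 to 34936 FPKM in dsNC.

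No conjugating enzyme passed the test, which called only 10% of 2-fold changes in simulated data. In limma 0 of the 77 members had an adjusted p under 0.05, where 0.496% of all genes tested passed (0.0771% as higher and 0.419% as lower), and the smallest adjusted p among members was 0.0536. An unadjusted p under 0.05 was reached by 12 members with higher and 7 with lower values in dsFactin, against 4.53% and 14.8% of all genes. All 3 dsFactin libraries lay above all 3 dsNC libraries in 14 members and below them in 8, against 5.98% and 21.5% of all genes. The log2 difference was positive in 45 of the 77 members, against 28.4% of all genes. Each of the counts of 12, 14 and 45 includes 2 low galactosylceramide sulfotransferase rows (Cluster-8110.52257 and Cluster-8110.3401) that had entered through their dsFactin values alone, so they had to be higher. The median difference was 0.09 in members and -0.27 over all genes, so members stood 0.36 above the median gene. Rescaling libraries by median ratios gave medians of 0.40 in members and -0.09 over all genes, and quantile normalization 0.22 and 0.01.

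The share of positive differences was not the same at all levels. At 50 FPKM or more, 59.8% of all genes without a Drosophila best hit had a positive difference, with a median of 0.09, and 14 of 19 members did, with a median of 0.22. From 5 to 50 FPKM, 36.9% of all genes were positive, and 23 of 36 members were. From 1 to 5 FPKM, 22.9% of all genes and 3 of 14 members were positive. Under 1 FPKM, 26.4% of all genes and 5 of 8 members were, the 5 including both galactosylceramide rows.

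**Figure D1:**
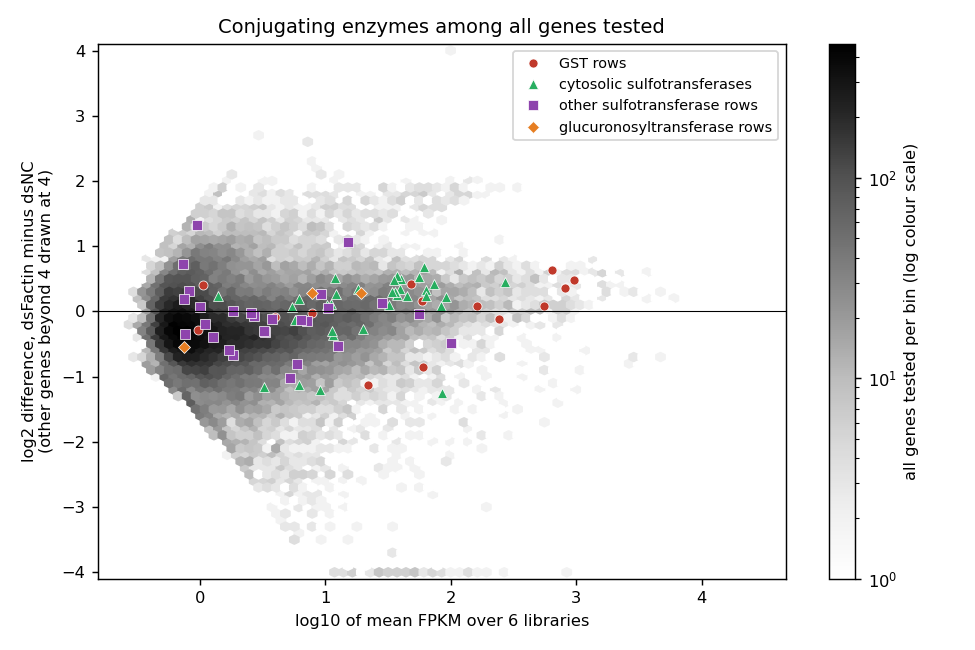
Log2 difference between dsFactin and dsNC (vertical axis, on the log2(FPKM + 1) scale) against the log10 of mean FPKM over the 6 libraries, with all genes tested as grey bins and the 77 conjugating enzymes as coloured symbols. Members lay between -1.26 and 1.32 on the vertical axis, and the most abundant ones were GST rows.

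The GST rows covered 6 classes of the enzyme and most were matched to this spider's own proteins. Of the 14, 13 had a best hit in Pardosa pseudoannulata, and the other was a C-terminal domain protein homolog, a relative whose role in conjugation is not established here. They were 807 to 2604 bases long and spanned mean levels of 0.970 to 955 FPKM. All 14 entered by the words of their descriptions and 0 by Pfam domain, since the rule's GST domains occur in no row of the expression table. A GST described in other words would thus have been missed. A zeta-class enzyme, which databases name maleylacetoacetate isomerase after its role in tyrosine breakdown, fell outside the words of the rule. It was chosen after its values were seen, and its main row (Cluster-8110.32082) averaged 46.7 ± 9.55 FPKM in dsFactin and 40.1 ± 4.08 FPKM in dsNC (SD, n = 3 each).

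A small number of cytosolic GSTs held most of the family's transcript. The 4 most abundant rows made up 84.9% of summed GST FPKM in dsFactin and 80.5% in dsNC. Glutathione transferase mu 2 (Cluster-8110.33858), of a class known in mammals for conjugating electrophiles in the cytosol, led the family. It was at 1000.2, 1029 and 1316 FPKM in dsFactin replicates 1 to 3 and at 775, 752 and 857 FPKM in dsNC replicates 1 to 3. Each dsFactin library was above each dsNC library, with a log2 difference of 0.48 ± 0.15 (SE, limma adjusted p = 0.173).

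Glutathione transferase sigma 2 (Cluster-8110.34506) had the largest positive difference of the GST rows on the log2(FPKM + 1) scale. Sigma enzymes of insects act on products of lipid peroxidation. Its level was 837, 677 and 821 FPKM in dsFactin and 524, 455 and 529 FPKM in dsNC, with no overlap. It differed by 0.63 ± 0.14 on the log2 scale (SE), with a 95% interval from 0.29 to 0.97 and a limma adjusted p of 0.0970.

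The delta class, the one most often linked to insecticide tolerance in insects, was abundant and did not separate the groups. Delta 3 (Cluster-8110.35595) was at 674, 1053 and 1037 FPKM in dsFactin and at 689, 650 and 769 FPKM in dsNC. An unnumbered delta-like GST (Cluster-8110.35310) spread more widely in dsFactin, at 384, 548 and 810 FPKM, than in dsNC, at 525, 488 and 554 FPKM. In both genes the first dsFactin library was the lowest of its group and reached into or below the dsNC range. Delta 3 differed by 0.36 ± 0.21 (SE, limma adjusted p = 0.389). The unnumbered gene differed by 0.09 ± 0.27 (SE), with an interval from -0.56 to 0.74, and its difference turned negative without dsFactin replicate 3. Delta 2 (Cluster-8110.31324) averaged 166 ± 24.0 FPKM in dsFactin and 156 ± 9.39 FPKM in dsNC, and delta 1 (Cluster-8110.21425) averaged 7.67 ± 0.418 and 7.88 ± 1.47 FPKM in the same order (SD, n = 3 each).

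Mu 1 (Cluster-8110.35403) averaged 233 ± 24.1 FPKM in dsFactin and 251 ± 6.10 FPKM in dsNC (SD, n = 3 each), within an interval for the log2 difference of -0.40 to 0.18. Its difference of -0.11 was positive, at 0.22, after rescaling libraries by median ratios. Theta 1 (Cluster-8110.27194) was at 66.6, 43.3 and 56.2 FPKM in dsFactin and at 39.4, 38.2 and 44.0 FPKM in dsNC (log2 difference 0.42 ± 0.18, SE, limma adjusted p = 0.267). Kappa 2 (Cluster-8110.36239), of a class found in mitochondria and peroxisomes of mammals, averaged 62.5 ± 7.68 FPKM in dsFactin and 55.7 ± 5.74 FPKM in dsNC (SD, n = 3 each). The groups overlapped in all 3 of these genes.

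Sigma 1 (Cluster-8110.31707) set 1 dsFactin library against the other two. It was at 17.1, 141 and 15.6 FPKM in dsFactin replicates 1 to 3, and at 67.4, 62.4 and 57.1 FPKM in dsNC replicates 1 to 3. The dsNC libraries were close together, while dsFactin replicate 2 was above all of them and the remaining dsFactin libraries below. This gave a log2 difference of -0.85 ± 0.81 (SE, limma adjusted p = 0.593). Without dsFactin replicate 2 it was -1.86, with a limma adjusted p of 0.0108. In that setting 1004 of all 53182 genes passed as lower, against 223 with all 6 libraries. A second row with the same best hit (Cluster-8110.17609) was near the lower limit, at 1.34 ± 0.377 FPKM in dsFactin and 0.780 ± 0.376 FPKM in dsNC (SD, n = 3 each).

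Microsomal glutathione transferase 1 (Cluster-8110.36214) has its closest Swiss-Prot match in GST 3, a membrane enzyme that in mammals takes part in making leukotrienes and reducing lipid peroxides. It was at 11.8, 16.6 and 11.5 FPKM in dsFactin, from 96 to 142 fragments, and at 31.1, 27.6 and 31.6 FPKM in dsNC, from 231 to 292 fragments. The groups were far apart, at 0.442 times the dsNC mean in dsFactin. The log2 difference was -1.14 ± 0.17 (SE), with a 95% interval from -1.55 to -0.72 and a limma adjusted p of 0.0582. It passed in 3 of 16 other settings, among them without dsFactin replicate 2 (adjusted p = 0.0269, limma), where 1004 of all genes passed as lower. The adjusted p over the 16 settings ranged from 0.0269 to 0.216. Microsomal glutathione transferase 2 (Cluster-8110.23494) was near the lower limit, at 0.560, 0.810 and 0.830 FPKM in dsFactin and at 2.01, 1.19 and 0.420 FPKM in dsNC. Its groups overlapped, and the interval of its log2 difference ran from -1.07 to 0.50.

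**Figure D2:**
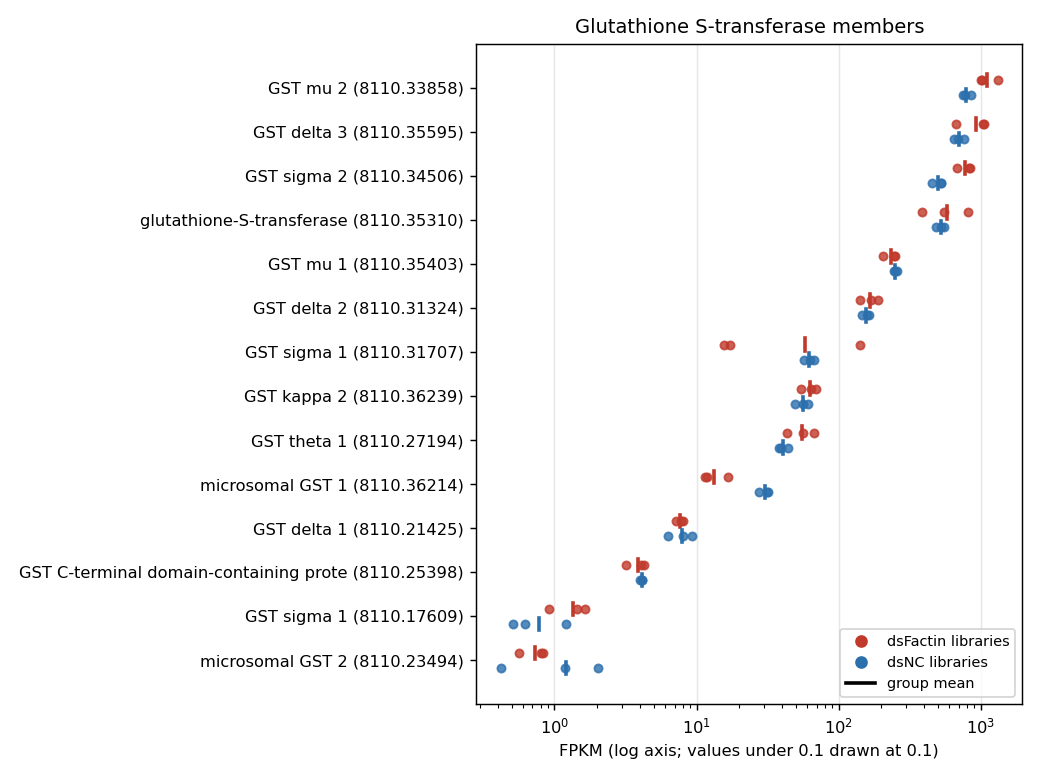
FPKM (log axis) of the 14 GST rows in each dsFactin library (red, upper points of a row) and each dsNC library (blue, lower points), with vertical ticks at the group means and rows sorted by mean level. Microsomal GST 1 is the row whose dsFactin points all lie below its dsNC points, and the more abundant sigma 1 row the one whose dsFactin points lie on both sides.

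Summed over the 14 rows, GST FPKM was 3402, 4003 and 4585 in dsFactin and 3145, 2930 and 3319 in dsNC. Each dsFactin sum was above each dsNC sum, at 1.28 times the dsNC mean. The exact permutation p was 0.1, two-sided, the smallest that 3 libraries against 3 allow. In bulk samples such as these, more cells of a type and more RNA per cell cannot be told apart. Rows found by words for trypsin, chymotrypsin, astacin, amylase and carboxypeptidase, used as markers of the gut and digestive gland, summed to 26735 to 30119 FPKM in dsFactin and 16164 to 20976 FPKM in dsNC. Of all these 102 rows, 37 lay wholly above dsNC and 16 wholly below, against 5.98% and 21.5% of all genes tested. The log2 difference was positive in 50 and negative in 52, with a median of -0.05, where 28.4% of all genes were positive. In limma 1 of the rows passed as higher and 2 as lower, where 0.0771% and 0.419% of all genes did. One row, a carboxypeptidase inhibitor (Cluster-11881.0), was listed at 0 in all 3 dsFactin libraries. The words took in 17 inhibitor rows, and the 85 rows without them summed to 16693 to 19490 FPKM in dsFactin and 10301 to 13219 FPKM in dsNC. Of these 85 rows, 0 passed as higher and 1 as lower. Of the inhibitor rows 1 passed in each direction, the higher one a papilin match (Cluster-8110.39942). The part of these digestive rows, and of the ovary and yolk rows, in the GST sums was not tested.

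**Figure D3:**
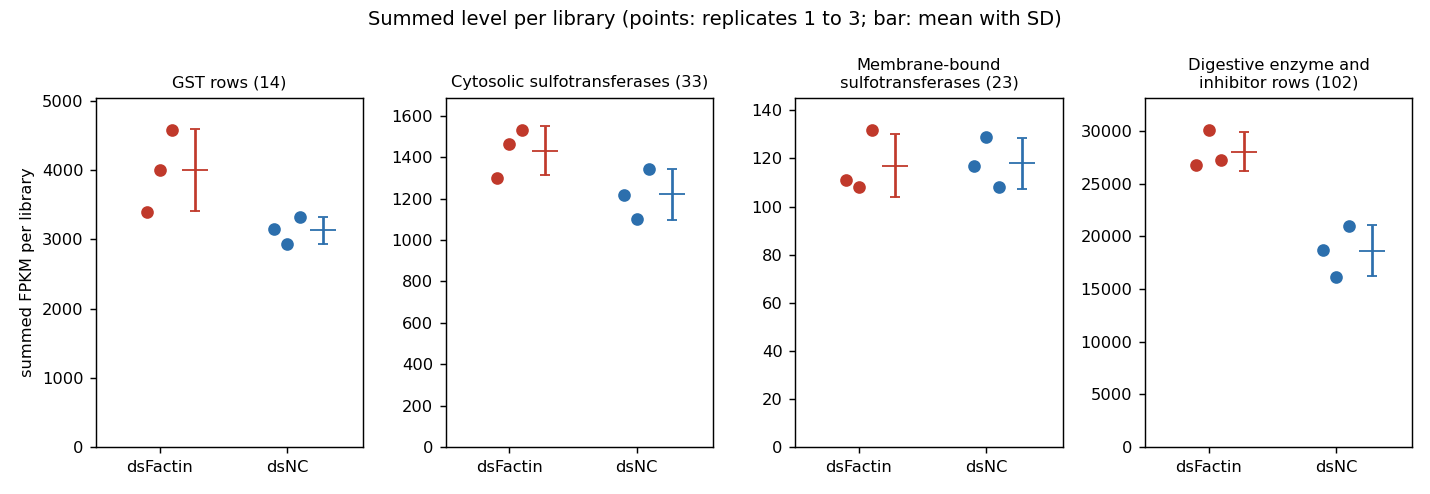
Summed FPKM per library (linear axes from 0) for the GST rows, the cytosolic sulfotransferases, the membrane-bound sulfotransferases and the digestive marker rows, dsFactin in red and dsNC in blue, with the mean and SD of 3 libraries beside the points. The GST and digestive sums do not overlap between groups, and both sulfotransferase sums do.

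The 3 rows of the glucuronosyltransferase rule were not detoxifying UGTs, against the name of the family. Cluster-8110.44122 is galactosylgalactosylxylosylprotein 3-beta-glucuronosyltransferase 3, a Golgi enzyme that completes the sugar linker on which heparan and chondroitin sulfate chains are built. It was at 23.4, 19.1 and 20.9 FPKM in dsFactin and at 17.3, 16.2 and 17.8 FPKM in dsNC. All dsFactin values were above all dsNC values, by a log2 difference of 0.29 ± 0.13 (SE, limma adjusted p = 0.296).

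Cluster-8110.27615 matches ALG13, a subunit of the N-acetylglucosamine transferase that begins N-linked sugar chains, and entered by a Pfam domain. It averaged 8.75 ± 2.64 FPKM in dsFactin and 6.86 ± 0.649 FPKM in dsNC (SD, n = 3 each). Cluster-8110.52791, also entered by domain, has afadin as its best hit, an adaptor between cell junctions and actin filaments in vertebrates. It was at 0.710 and 0.570 FPKM in dsFactin replicates 1 and 2 and listed at 0 in replicate 3, against 1.54, 1.17 and 0.510 FPKM in dsNC. The groups overlapped in both genes. The rows that do match insect UGTs were the 4 with a Drosophila best hit described above.

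Sulfotransferases were the largest family and fell into cytosolic and membrane-bound rows by their descriptions. Of the 60, 33 matched cytosolic enzymes, which sulfate small molecules such as phenols, amines and steroids, and 23 matched membrane-bound enzymes. The other 4 carried a sulfotransferase domain under another best hit or none with a known function, among them a synapsin-like row (Cluster-8110.37584). The grouping was made after values had been seen, from the descriptions alone. No row had a best hit in Pardosa pseudoannulata, and the 33 cytosolic rows shared 24 best hits, 5 rows at most on 1 hit. Whether clusters that share a hit are pieces of 1 gene or related copies was not tested, and reads may have been divided among them, so the level of a single row is uncertain. In addition, 11 of the 60 were shorter than 700 bases, where a single fragment is worth more FPKM.

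Cytosolic rows were mostly at higher values in dsFactin, with small differences. The log2 difference was positive in 25 of 33 rows, against 28.4% of all genes tested. It ranged from -1.26 to 0.69 and had a median of 0.23, which is 0.50 above the median gene. At 50 FPKM or more, 8 of 9 were positive (median 0.33), against 59.8% of all genes without a Drosophila best hit (median 0.09). From 5 to 50 FPKM, 16 of 22 were (median 0.21), against 36.9% of such genes (median -0.16). From 1 to 5 FPKM, 1 of 2 was (median -0.47), against 22.9% (median -0.36). The count of positive rows was 22 to 25 with 1 library left out. All 3 dsFactin libraries lay above dsNC in 7 rows and below in 2, against 5.98% and 21.5% of all genes tested. Summed FPKM was 1299, 1464 and 1533 in dsFactin and 1219, 1099 and 1342 in dsNC. The lowest dsFactin sum lay below the highest dsNC sum (exact permutation p = 0.2, two-sided). The log2 difference of this sum was 0.23, and 0.55 with no overlap after rescaling by median ratios.

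The most abundant sulfotransferase row (Cluster-8110.39583) matched part of sulfotransferase 1E1, an estrogen sulfotransferase in mammals. It is 407 bases long and was at 258, 323 and 346 FPKM in dsFactin and 228, 174 and 287 FPKM in dsNC, with overlap. A 1C2-like row (Cluster-8110.30728) averaged 98.6 ± 17.8 FPKM in dsFactin and 84.2 ± 12 FPKM in dsNC. A 1C2A row (Cluster-8110.40751) averaged 86.4 ± 6.89 FPKM in dsFactin and 81.6 ± 4.75 FPKM in dsNC (SD, n = 3 each), and its log2 difference lay between -0.20 and 0.36 at 95%. Neither row separated the groups.

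Among cytosolic rows that lay wholly higher, the ssu-1-like row (Cluster-8110.31744) differed most. The name comes from a sulfotransferase of the nematode Caenorhabditis elegans. It was at 86.4, 54.4 and 85.9 FPKM in dsFactin and at 48.0, 44.4 and 44.3 FPKM in dsNC. Replicate 2 of dsFactin was the nearest to the controls. The log2 difference of the ssu-1-like row came to 0.69 ± 0.20 (SE, limma adjusted p = 0.149), and 0.91 with an adjusted p of 0.0367 without dsFactin replicate 2. In that setting 293 of all 53182 genes passed as higher, against 41 with all 6 libraries.

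A partial 1C2 row (Cluster-8110.36324) had tight groups, at 49.3, 46.2 and 44.7 FPKM in dsFactin and 30.9, 33.8 and 33.3 FPKM in dsNC. Its log2 difference was 0.50 ± 0.11 (SE), with a limma adjusted p of 0.0916, and 0.0475 when only genes with a mean of at least 5 FPKM were tested. In that setting 246 of all 12897 genes passed as higher. A 1B1-like row (Cluster-8110.33940), of a type that sulfates thyroid hormone in mammals, was at 44.9, 39.8 and 39.9 FPKM in dsFactin and 30.4, 26.8 and 31.2 FPKM in dsNC. The groups did not overlap, and the difference was 0.48 ± 0.12 (SE, limma adjusted p = 0.117).

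A further 1B1-like row, of similar name, lay far lower in dsFactin. Cluster-8110.34820 was at 51.8, 34.6 and 66.0 FPKM in dsFactin and at 139, 115 and 105 FPKM in dsNC. Its highest dsFactin value was well under its lowest dsNC value. This row's log2 difference was -1.26 ± 0.25 (SE), with a 95% interval from -1.86 to -0.65 and a limma adjusted p of 0.0822. Over 16 other settings its adjusted p ranged from 0.0501 to 0.240. It made up 2.99% of summed sulfotransferase FPKM in dsFactin and 7.87% in dsNC.

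The sulfotransferase 1C4-like row (Cluster-8110.29514) had the smallest adjusted p of the 77 members. It was at 4.73, 6.40 and 4.35 FPKM in dsFactin, from 49 to 74 fragments, and at 13.4, 12.5 and 13.3 FPKM in dsNC, from 142 to 165 fragments. Each dsFactin library held less than each dsNC library, at 0.395 times the dsNC mean. The log2 difference was -1.21 ± 0.17 (SE), with an interval from -1.62 to -0.79 and a limma adjusted p of 0.0536. It passed in 4 of 16 other settings, and its adjusted p over them ranged from 0.0274 to 0.216.

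Some cytosolic rows differed more within dsFactin than between groups. An amine sulfotransferase-like row (Cluster-8110.30584), chosen after its values were seen, was at 3.69, 0.330 and 9.38 FPKM in dsFactin and 6.92, 6.80 and 9.88 FPKM in dsNC. A 1B1-like row (Cluster-8110.13786), also chosen after its values were seen, was at 0.410 and 6.59 FPKM in dsFactin replicates 1 and 2 and listed at 0 in replicate 3, against 2.82, 3.55 and 5.93 FPKM in dsNC. In the first of these dsFactin replicate 2 was the lowest library and in the second the highest. Among members with a mean of at least 5 FPKM, the coefficient of variation was larger in dsFactin for 48 of 55, with a median of 21.1% in dsFactin and 8.29% in dsNC. It was larger in dsFactin for 75.4% of all 12789 such genes, with medians of 21.2% in dsFactin and 12.3% in dsNC.

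Membrane-bound sulfotransferases, which place sulfate on glycosaminoglycans, glycolipids and protein tyrosines, had no common direction. Of 23 rows, 9 had a positive log2 difference, with a median of -0.12 in a range from -1.02 to 1.32. Over all genes tested 28.4% were positive, with a median of -0.27. By level, 5 of 6 rows were positive under 1 FPKM, 1 of 9 from 1 to 5 FPKM and 3 of 8 from 5 to 50 FPKM. Of all genes without a Drosophila best hit, 26.4%, 22.9% and 36.9% were positive in the same bands. The 9 include the 2 galactosylceramide rows that entered through dsFactin alone, 1 of which sets the upper end of the range. There were 14 positive rows when libraries were rescaled by median ratios and 16 under quantile normalization, so the direction of the group depends on scaling. Summed FPKM was 111, 108 and 132 in dsFactin and 117, 129 and 108 in dsNC, with overlap. After rescaling by median ratios the log2 difference of this sum was 0.33, against -0.01 as deposited. Levels were modest, with a median over rows of 2.67 FPKM, against 34.0 FPKM in the cytosolic rows.

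Carbohydrate sulfotransferase 11-like (Cluster-8110.38296), an enzyme of chondroitin sulfate, was at 2.18, 4.5 and 2.74 FPKM in dsFactin and at 6.92, 7.27 and 7.41 FPKM in dsNC. The groups were apart, with a log2 difference of -1.02 ± 0.24 (SE, limma adjusted p = 0.101), and an adjusted p of 0.0434 without dsFactin replicate 2. In that setting 1004 of all 53182 genes passed as lower, against 223 with all 6 libraries. Galactose-3-O-sulfotransferase 4-like (Cluster-8110.17401), which sulfates galactose on sugar chains, was at 3.99, 4.43 and 3.75 FPKM in dsFactin and at 8.06, 8.34 and 7.11 FPKM in dsNC. The dsFactin values were again all lower, by a log2 difference of -0.80 ± 0.15 (SE, limma adjusted p = 0.0787).

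Carbohydrate sulfotransferase 1-like (Cluster-8110.16296), named for a mammalian enzyme of keratan sulfate, went the other way. It was at 14.9, 15.0 and 34.5 FPKM in dsFactin and at 9.54, 9.62 and 7.85 FPKM in dsNC. The third dsFactin library was far above the rest. With that library included the log2 difference was 1.06 ± 0.33 (SE, limma adjusted p = 0.167), and without it 0.68. The heparan sulfate rows, chosen as a group after their values were seen, were mostly at low levels. The most abundant of them, the 2-O-sulfotransferase pipe-like row (Cluster-8110.36272), whose Drosophila namesake acts in dorsoventral patterning of the embryo, was at 8.96, 9.36 and 11.8 FPKM in dsFactin and 13.6, 17.6 and 13.7 FPKM in dsNC, all dsFactin values being lower (limma adjusted p = 0.180).

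A domain-only row with no sulfotransferase hit (Cluster-8110.25776), among the 5 most abundant of the family, averaged 84.2 ± 25.4 FPKM in dsFactin and 115 ± 12.3 FPKM in dsNC (SD, n = 3 each). Its groups overlapped and its function is not known from the table.

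**Figure D4:**
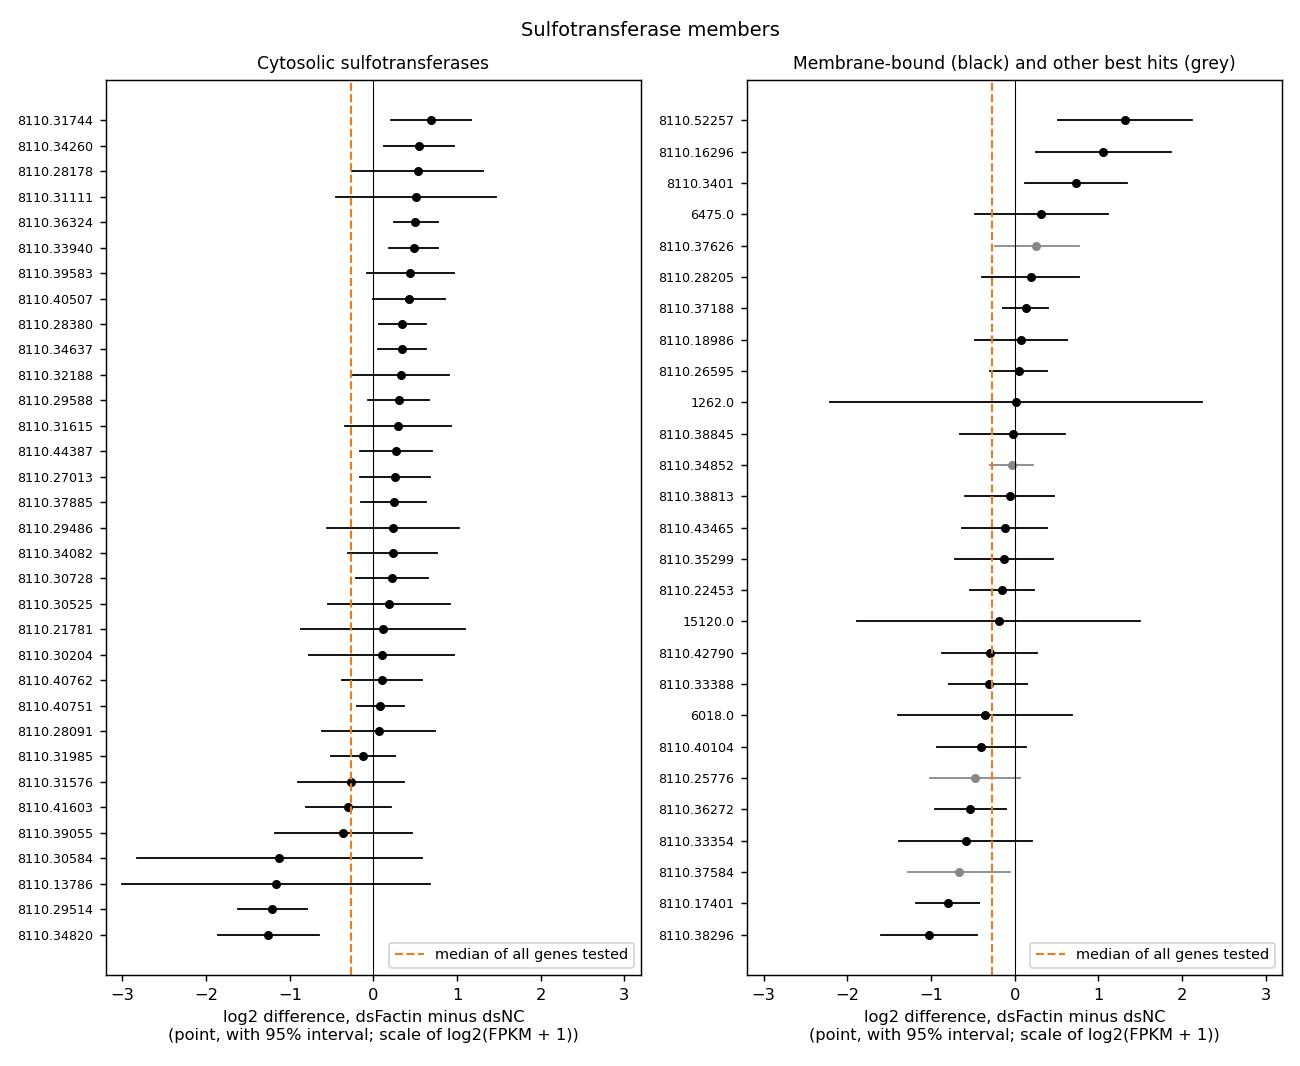
Log2 difference between dsFactin and dsNC with its 95% interval from limma for each of the 60 sulfotransferase rows, cytosolic at left, membrane-bound (black) and other best hits (grey) at right, with a dashed line at the median of all genes tested. Of the cytosolic points 25 of 33 lie to the right of 0, and of the membrane-bound points 9 of 23, where 28.4% of all genes tested do.

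**Figure D5:**
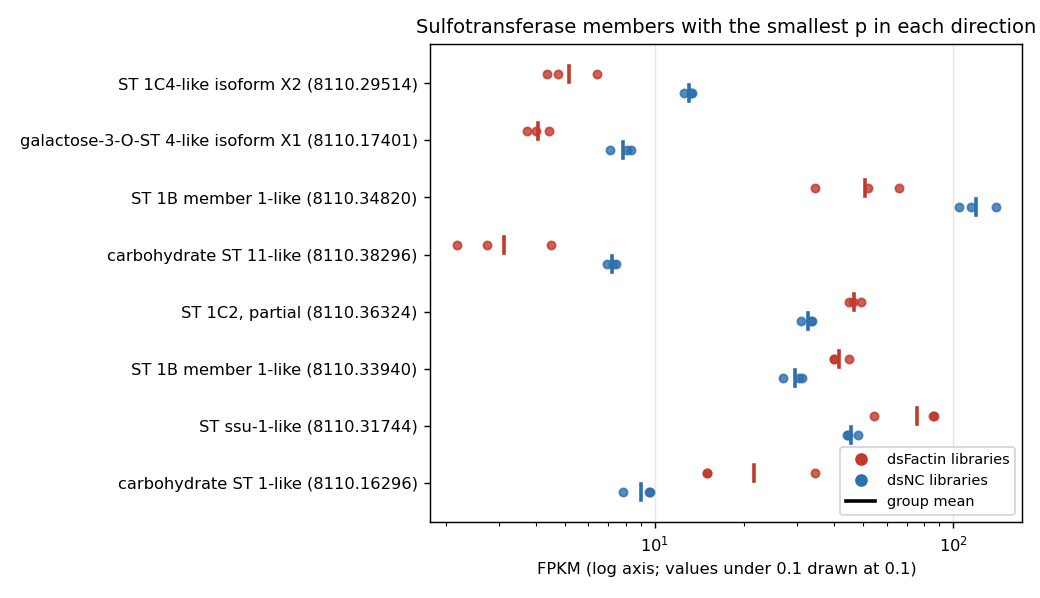
FPKM (log axis) of the 8 sulfotransferase rows (ST, sulfotransferase) with the smallest p in each direction among rows with a mean of at least 1 FPKM, dsFactin in red above dsNC in blue, with ticks at the group means. In each of the 8 rows the groups do not overlap, as the rows were chosen by their p, and the upper 4 have the lower dsFactin values.

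The rule's level threshold affected few rows. Of the 77 members, 65 reached 0.5 FPKM in all 6 libraries and 4 in exactly 3. Just inside were 2 galactosylceramide sulfotransferase rows that reached it in dsFactin alone, at 1.6, 0.830 and 2.98 FPKM in dsFactin and 0, 0.210 and 0 FPKM in dsNC for Cluster-8110.52257, and at 0.650, 1.45 and 1.41 FPKM in dsFactin and 0.170, 0.410 and 0.300 FPKM in dsNC for Cluster-8110.3401. Also inside were 2 heparan sulfate rows, Cluster-1262.0 and Cluster-15120.0, of 327 and 351 bases, each listed at 0 in 3 of the 6 libraries. Just outside were a delta 1 row (Cluster-8110.3364) at 0.320, 0.410 and 0 FPKM in dsFactin and 0, 0.840 and 2.89 FPKM in dsNC, and an ssu-1-like row (Cluster-15454.0) at 0.610, 0.240 and 0 FPKM in dsFactin and 1.81, 0.250 and 0.440 FPKM in dsNC.

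Genes that supply, undo or export the conjugates were read from lists of description words. Of 20 rows for glutathione synthesis and recycling, 0 rose and 1 fell, where 0.0771% and 0.419% of all genes tested did. The row that fell, to 12.9 ± 0.258 FPKM in dsFactin, against 26.3 ± 2.04 FPKM in dsNC (Cluster-8110.31062, SD, n = 3 each, limma adjusted p = 0.0415), matches hemocyte protein-glutamine gamma-glutamyltransferase. This is a transglutaminase that crosslinks proteins in clotting, and it entered the list by its name only. The most abundant row, a glutathione peroxidase (Cluster-8110.34946), averaged 291 ± 52.8 FPKM in dsFactin and 312 ± 3.77 FPKM in dsNC. The list's median difference was 0.13, against -0.27 over all genes tested. An unadjusted p under 0.05 was reached by 4 rows with higher and 2 with lower values in dsFactin, against 4.53% and 14.8% of all genes. Among the 4, and chosen after its values were seen, was a glutathione synthetase-like row (Cluster-8110.41054), for the enzyme of the last step of glutathione synthesis. It was at 9.78, 10.7 and 15.5 FPKM in dsFactin and 5.10, 5.23 and 5.34 FPKM in dsNC, with no overlap (limma adjusted p = 0.0784).

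In the other lists 0 rows passed in either direction, and the counts that follow are of unadjusted p under 0.05 in limma, which 4.53% of all genes reached with higher and 14.8% with lower values in dsFactin. Of 6 rows for UDP-glucuronate supply, 1 reached it with higher and 2 with lower values. Both of the last (Cluster-12281.0 and Cluster-8110.51506) had 0 FPKM in every dsFactin library and met the level through dsNC alone, so they had to be lower. The most abundant, a UTP-glucose-1-phosphate uridylyltransferase (Cluster-8110.33434), averaged 132 ± 16.1 FPKM in dsFactin and 88.1 ± 8.44 FPKM in dsNC. Of 3 rows for activated sulfate, 1 had such a p with higher values, the sulfate transporter-like row (Cluster-8110.36288), at 86.8 ± 8.74 FPKM in dsFactin and 62.8 ± 7.34 FPKM in dsNC. Of 18 sulfatase and glucuronidase rows, 1 had such a p with higher and 1 with lower values, and the most abundant, a beta-glucuronidase-like row (Cluster-8110.26638), averaged 81.3 ± 22.6 FPKM in dsFactin and 77.6 ± 2.01 FPKM in dsNC. Of 35 export rows of the multidrug resistance-associated proteins, 4 had such a p with higher and 2 with lower values, and the most abundant (Cluster-8110.35748) averaged 30.0 ± 4.73 FPKM in dsFactin and 25.5 ± 0.550 FPKM in dsNC (SD, n = 3 each). Of 5 rows found by words for the regulators Nrf2, Keap1 and Maf, 2 had such a p with higher and 0 with lower values. The most abundant of the 5, and 1 of those 2, is an E3 ubiquitin ligase (Cluster-8110.29718) that matched only because its symbol contains the letters nrf2. The other of the 2 matches MafAa (Cluster-8110.21193). It averaged 4.02 ± 1.02 FPKM in dsFactin and 1.94 ± 0.546 FPKM in dsNC. The MafK row (Cluster-8110.27022) averaged 4.58 ± 1.06 FPKM in dsFactin and 6.48 ± 1.39 FPKM in dsNC. The Keap1 row (Cluster-8110.32794) averaged 2.9 ± 0.711 FPKM in dsFactin and 3.14 ± 0.447 FPKM in dsNC. Both of these rows overlapped between groups and were chosen after their values were seen. The list's row for cap'n'collar, the arthropod counterpart of Nrf2, was chosen after its values were seen (Cluster-8110.35279) and averaged 15.9 ± 0.685 FPKM in dsFactin and 16.7 ± 1.07 FPKM in dsNC.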

How the data were processed

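Messenger RNA of 3 dsFactin and 3 dsNC libraries was sequenced after RNeasy extraction and SMARTER library preparation, per the labels' protocols. The authors deposited 1 table of FPKM values per assembled gene and library, rounded to 2 decimals. The sources used here name no assembler, aligner or counter. The only build in the submitters' processing notes is a mouse build, and the gene clusters carry no coordinates. Gene names are best protein hits of the table, and its gene lengths were used as deposited. Related transcripts may share reads, and the counting of strands is not given. No sequence of the members was in the sources used here.

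FPKM is not a count, so log2(FPKM + 1) was fitted with limma 3.58.1 in R 4.3.3 (intensity trend, two-sided, Benjamini-Hochberg over 53182 genes). The code was tested on simulated data of 53182 genes. It called 10% of 100 genes changed 2-fold and 73% of 100 changed 8-fold, with 9 false calls. Changes were placed only in genes at a mean level of about 5 FPKM or more. Values were drawn independently for each gene, and few genes were changed, so the shares called need not hold for the members. A difference of the size seen in members could still be missed. Sums were compared by exact permutation. Depth was the value at which low FPKM values, with a constant number of bases taken off gene length, fell on whole fragments. Of these, 99.37 to 99.85% lay within 0.1 of one. Intervals for fragments are not given, since fragments are not independent molecules.

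Members, lists and tests were chosen with earlier results of these data known. Named genes are those that passed, the 5 most abundant of each family, and the 4 with the smallest p in each direction at a mean of at least 1 FPKM; in the other lists, those that passed and the most abundant. Alternatives were other pseudocounts, filters, scalings, no trend, array weights, a replicate block, and each library left out.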

Additional observations from a re-analysis of the deposited data

How the results depend on the processing

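Among the 77 conjugating enzymes the count that passed in limma was 0 as reported and with no filter, a pseudocount of 0.01, median-ratio rescaling, quantile normalization, no trend, the replicate block, and, in a setting added after seeing the data, with Drosophila-hit genes dropped. It was not 0 in the following settings, for which the cause was not tested. With a pseudocount of 0.1, 1 sulfotransferase row passed as lower, where 328 of all 53182 genes did. At a mean of at least 5 FPKM, where fewer genes are tested, 1 GST row passed as lower. In the same setting 1 sulfotransferase row passed as higher and 2 as lower. Of all 12897 genes tested there, 246 passed as higher and 535 as lower. With array weights 1 GST row and 1 sulfotransferase row passed as lower, where 536 of all 53182 genes did. With 1 library left out, 0 to 2 GST rows passed as lower, 0 to 1 sulfotransferase rows as higher and 0 to 2 as lower. The rows that passed did so without dsFactin replicate 2, where 293 of all 53182 genes passed as higher and 1004 as lower.

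The GST median difference of 0.08 was 0.41 after median-ratio rescaling and, with a library left out, -0.03 (without dsFactin replicate 3; 0.04 without dsNC replicate 2) to 0.23 (without dsFactin replicate 1). The sulfotransferase median of 0.09 was 0.37 with median ratios and 0.23 with quantiles, and that of the glucuronosyltransferase rows (0.28) was 0.57 after median-ratio rescaling. With a library left out the sulfotransferase median was 0.05 (without dsNC replicate 2) to 0.14 (without dsNC replicate 3), and the glucuronosyltransferase median 0.07 (without dsFactin replicate 3) to 0.36. Differences of summed FPKM on the log2 scale were 0.35 for GST, 0.16 for sulfotransferase and 0.28 for glucuronosyltransferase rows. After median-ratio rescaling they were 0.68, 0.48 and 0.60, and the last was 0.44 with quantile normalization. The median over all genes tested was -0.27, and -0.09 after that rescaling. Positive membrane-bound sulfotransferase rows, counted under other settings after seeing the data, numbered 9 as reported, 14 with median ratios and 16 with quantiles.

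Of single genes, the difference of the unnumbered delta-like GST (Cluster-8110.35310) turned to -0.04 with array weights and to -0.19 without dsFactin replicate 3. The most abundant sulfotransferase row (Cluster-8110.39583, 0.44) was 0.26 without dsNC replicate 2, and delta 3 (Cluster-8110.35595, 0.36) was 0.58 without dsFactin replicate 1. The afadin hit (Cluster-8110.52791, -0.54) was -0.31 without dsFactin replicate 3, but -1.52 with a pseudocount of 0.1 and -2.61 with 0.01. Sigma 1 (Cluster-8110.31707, -0.85) was -0.38 without dsFactin replicate 1 and -0.31 without dsFactin replicate 3. Mu 1 (Cluster-8110.35403) turned to 0.22 after median-ratio rescaling. The GST C-terminal domain protein (Cluster-8110.25398, -0.08) turned to 0.18 with median ratios, 0.22 with quantiles and -0.14 to 0.02 with a library left out (0.02 without dsFactin replicate 1). In 364 other fits of named genes the direction and side of the threshold were kept, and in 12 the gene passed.

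Over all genes, 41 passed as higher and 223 as lower. With a pseudocount of 0.1, 64 were higher, and with 0.01, 17 higher and 97 lower. Without a filter the counts were 13 and 104, with the mean filter 246 and 535, and after median-ratio rescaling 25 and 90. Quantile normalization gave 67 higher and 176 lower, no trend 19 and 155, and array weights 166 and 536. Leaving out a library gave 2 to 293 higher and 31 to 1004 lower, the highest counts without dsFactin replicate 2.

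The replicate block left 1 higher and 16 lower gene. Same-numbered libraries of both groups deviated from their group means with correlations of 0.099, -0.108 and -0.153, and unlike-numbered ones with -0.140 to 0.229. These correlations were not tested, and the labels do not say whether the numbers pair the samples. Depth limits rows under about 1 FPKM.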
